A study of Sus scrofa with 6 samples.

Results

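The genes described here encode subunits of the proteasome and enzymes that attach ubiquitin to proteins or take it off again. They were chosen by symbol: every probe set to which the array's annotation gives 1 gene symbol beginning with PSMA to PSMG, UBE2, UBA or USP and then, except after UBE2, a digit. A probe set is the group of short probes that reports 1 transcript on the array. Where a gene had several, the 1 with the highest signal averaged over the arrays was kept, which gave 82 genes from 116 probe sets, of 6765 genes named on the array. They comprise 7 alpha and 7 constitutive beta subunits of the 20S core, 2 immunoproteasome subunits (PSMB8 and PSMB10), and 5 ATPase and 12 non-ATPase genes of the 19S regulatory particle. The 12 include the assembly chaperones PSMD5 and PSMD10. Another 5 are proteasome activators or the inhibitor, 2 are core assembly chaperones, 2 are activating enzymes (E1), 24 are conjugating enzymes (E2) and 16 are ubiquitin-specific proteases. PSMB9, the other inducible catalytic subunit, was not analysed here because no probe set used here carries its symbol alone.

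The follicles came from ovaries of prepubertal gilts, young female pigs before puberty, and were sorted by morphology and diameter into 3 stages: primordial, middle and last. There were 2 arrays per stage, which the titles call biological replicates, and the labels give no treatment, breed or number of animals or follicles. Nothing says that the replicates came from separate animals, so a p-value here reflects the spread between the deposited samples, which may be technical. Stage names rest on the titles, since another label calls all 6 samples primordial.

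The 20S core is a barrel of stacked alpha and beta rings with the peptide-cutting sites inside, and the 19S particle caps it, recognises ubiquitin-tagged proteins, and unfolds them with its ATPase ring. An E1 enzyme activates ubiquitin, an E2 carries it, and a ligase helps to pass it to a target, while ubiquitin-specific proteases remove it. In the ovary the system is known for degrading cell cycle regulators in oocytes and growing granulosa cells, and immune cells make an immunoproteasome with replaced beta subunits that cuts peptides for antigen presentation.

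Values are probe set signals on a linear scale. All differences were computed as log2(signal + 16), and a gene was called higher or lower where limma's test across all probe sets, adjusted by Benjamini-Hochberg, gave p under 0.05. Leaving out the dimmest 40% of probe sets kept 80 of the 82 members and 5432 genes in all. The trimmed mean signal was 500.1 on each array, but the authors' scaling had set it, so it cannot show that the arrays were alike. Median signals were 119.3 and 125.4 in the primordial pair of arrays, 169.9 and 165.0 in the middle pair and 140.3 and 150.6 in the last pair. Marker genes of some cell types also differed between stages. The summed signal of 10 oocyte marker genes was 493 and 459 in the primordial pair of arrays, 20027 and 21758 in the middle pair and 882 and 882 in the last pair, so the arrays labelled primordial showed little oocyte transcript. The sum of 12 leukocyte markers was 20753 and 19348, then 1550 and 1224, then 1674 and 4444, in the same order. Granulosa markers summed to 33463 and 45882, then 10075 and 14745, then 53803 and 48098, lowest in the middle pair. These markers did not move as 1: of 7 tested, 4 were called lower and 1 higher in the middle than in the primordial stage. The 1 that rose, AMH, gave 199 and 273, then 970 and 1764, then 107 and 113. Stroma markers summed to 742 and 542, then 19659 and 12502, then 15702 and 12653. The smooth muscle and theca sums were highest in the last pair, at 30038 and 29864 and at 19793 and 22868, and at most 9876 and 6390 on the other arrays. Of 6 theca genes 5 were called higher in the last than in the primordial stage. The other, CYP11A1, was highest in the primordial pair, at 4673 and 4311. The 3′ minus 5′ log2 signal of the actin control, which grows with RNA degradation, was 3.56 and 3.21, 4.98 and 4.21, and 3.90 and 3.57. That of GAPDH was 3.43 and 2.69, 3.29 and 2.79, and 1.90 and 1.86. That of EF1A was 1.02 and 0.67, 1.34 and 0.87, and 0.83 and 0.70. For each control both middle arrays lay above both last arrays, while the place of the primordial arrays differed between controls. The part of these markers and of RNA quality in the stage differences given next was not tested. In whole follicles, fewer cells of a type and less RNA per cell cannot be told apart.

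From the primordial to the middle stage, 18 of the 80 members tested fell and 7 rose, while 45.5% of all genes tested were called (22.9% higher and 22.5% lower). The members' called share, 31.2%, was thus below that of all genes. Their median difference was -0.17, against 0.06 for all genes. The proteasome genes supplied 13 of the 18 that fell and 1 of the 7 that rose. From the middle to the last stage 7 members rose and 2 fell, with 16% of all genes called (8.8% higher and 7.23% lower). From the primordial to the last stage 4 rose and 7 fell, with 32.9% of all genes called (17.2% higher and 15.8% lower). Over all stages together, limma's F-test called 25 of the 80 members, beside 48.6% of all genes.

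These counts moved with the arrays and the scaling, and so did those of all genes. Between the primordial and the middle stage 11 members fell and 5 rose without primordial replicate 1, 10 fell and 4 rose without primordial replicate 2, and 9 fell and 6 rose without middle replicate 1. Of all genes, 16.1%, 15.2% and 14.5% were called lower in those fits. Without middle replicate 2, 18 fell and 4 rose, and the members' median was 0.02 without middle replicate 1. Between the middle and the last stage fewer members rose without middle replicate 1, middle replicate 2 or last replicate 1, and fewer fell without either middle array. Between the primordial and the last stage fewer rose without either primordial array, and fewer fell without primordial replicate 2. In all these fits smaller shares of all genes were called in the same directions. The F-test called 16 members without primordial replicate 2 and 14 without middle replicate 1. Centring each array on its median gave 5 higher and 32 lower members in the first of these comparisons, 10 and 2 in the second, and 2 and 11 in the third. That scaling moved the median difference of all genes from 0.06 to -0.18 between primordial and middle, from 0.02 to 0.13 between middle and last, and from 0.06 to -0.07 between primordial and last. Between primordial and middle it called 30.4% of all genes lower and 15.6% higher. The shares were 5.39% lower and 11.3% higher between middle and last, and 19.8% lower and 12.6% higher between primordial and last.

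**Figure D1:**
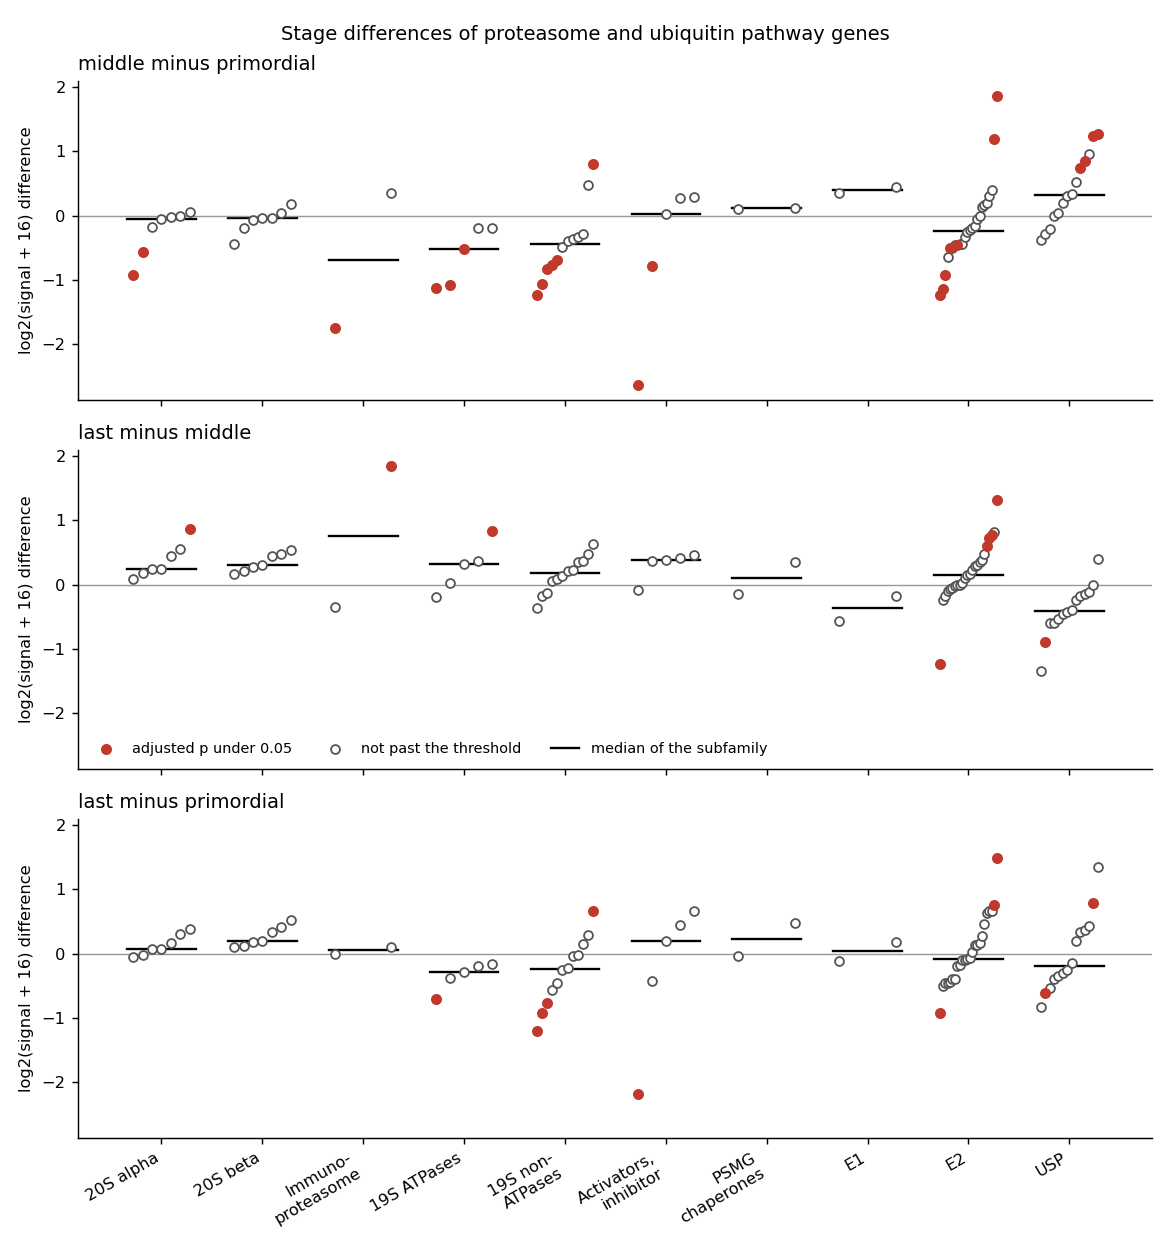
Difference in log2(signal + 16) for each tested gene, by subfamily, in the 3 stage comparisons; filled points passed limma's adjusted p under 0.05 and bars are subfamily medians. Between the primordial and middle stages 8 of 17 genes of the 19S particle fell and 1 rose. Of 14 ubiquitin-specific proteases 4 rose and 0 fell. Of all genes 22.5% were called lower and 22.9% higher.

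Few subunits of the 20S core were called. Of 14 core subunits outside the immunoproteasome, 2 fell between the primordial and the middle stage and 0 rose. Of all genes 22.5% were called lower and 22.9% higher. The median difference of the 14 was -0.05, which turned to 0.24 under quantile normalization and to 0.05 without middle replicate 1. Centring each array on its median gave -0.29, with all 14 negative and 4 called lower. That scaling called 30.4% of all genes lower. PSMA7, an alpha-ring subunit, gave signals of 6509 and 7915 in the primordial pair of arrays, 3418 and 4196 in the middle pair and 7903 and 6008 in the last pair. Both middle arrays lay below all other arrays, and the primordial and last arrays overlapped. PSMA7 fell by 0.92 on the log2 scale (SE 0.19, limma adjusted p = 0.00384) and rose again by 0.86 from the middle to the last stage (SE 0.19, limma adjusted p = 0.0151). The rise was not called without middle replicate 1, at 0.71, or without last replicate 1, at 0.66. PSMA5, another alpha subunit, gave 2869 and 3226, then 1789 and 2328, then 3242 and 2777. Its middle arrays were again the lowest, and it fell by 0.57 (SE 0.19, limma adjusted p = 0.0348). That call was lost without primordial replicate 1, primordial replicate 2 or middle replicate 1, at -0.66, -0.49 and -0.38.

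None of the 7 constitutive beta subunits was called by limma in any of the 3 comparisons. Of all genes 45.5% were called from primordial to middle, 16% from middle to last and 32.9% from primordial to last. The catalytic subunits have differing cutting preferences, PSMB5 chymotrypsin-like, PSMB6 caspase-like and PSMB7 trypsin-like. PSMB5 gave signals of 2417 and 2791, then 2353 and 3686, then 3760 and 2865, and all stages overlapped except the primordial and last. PSMB6 gave 3904 and 4452, then 3703 and 4511, then 6648 and 4696. PSMB7 gave 5410 and 5740, then 4873 and 5767, then 6586 and 6266. For PSMB6 and PSMB7 both last arrays lay above all the others, yet the last minus primordial differences were 0.42 (SE 0.20, limma adjusted p = 0.138) and 0.20 (SE 0.15, limma adjusted p = 0.331). PSMB4, a structural beta subunit, had the lowest middle minus primordial difference of the 7, at -0.44 (SE 0.17, limma adjusted p = 0.0608). From the middle to the last stage all 14 core subunits had a positive difference, from 0.09 to 0.86. Their median was 0.29 against 0.02 for all genes. PSMA7 alone was called, beside 8.8% of all genes called higher. Of the 14, 11 were positive under quantile normalization, 13 without middle replicate 1 and 12 without last replicate 1.

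The 19S regulatory particle held most of the proteasome genes that fell. From primordial to middle 8 of its 17 genes fell and 1, a chaperone, rose, beside 22.5% of all genes called lower and 22.9% higher. The particle's median difference was -0.49, from -1.24 to 0.80. Fewer fell without primordial replicate 1, primordial replicate 2 or middle replicate 1, where smaller shares of all genes were called lower too. The count that fell was 13 after centring on the median, where 30.4% of all genes were called lower. It was 7 under quantile normalization, where 24.3% were. PSMD11, a scaffold subunit of the lid, gave 7815 and 8199 in the primordial pair of arrays, 3052 and 3732 in the middle pair and 5438 and 4020 in the last pair. The stages did not overlap, with the primordial arrays highest and the middle arrays lowest. PSMD11 fell by 1.24 (SE 0.19, limma adjusted p = 0.00071), the largest fall in the particle. PSMD2, a large base subunit that docks ubiquitin-like domains, gave 4157 and 5002, then 1857 and 2510, then 2519 and 2250. Both later stages lay below the primordial arrays and overlapped each other, and PSMD2 fell by 1.07 (SE 0.20, limma adjusted p = 0.00216). PSMD12, another lid scaffold subunit, gave 2840 and 3164, then 1794 and 1565, then 1368 and 1233, so every stage was lower than the one before. It fell by 0.83 from primordial to middle (SE 0.18, limma adjusted p = 0.00474) and by 1.20 from primordial to last (SE 0.18, limma adjusted p = 0.00145).

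The ATPases form the ring that unfolds substrates. Of 5, 3 fell from primordial to middle and 0 rose, beside 22.5% of all genes called lower and 22.9% higher. PSMC5 gave 2658 and 2965, then 1125 and 1469, then 2531 and 2074. The middle arrays were lowest and no stages overlapped. PSMC5 fell by 1.12 (SE 0.20, limma adjusted p = 0.00188) and then rose by 0.83 (SE 0.20, limma adjusted p = 0.0229), a rise not called without middle replicate 1, at 0.64, or without last replicate 1, at 0.68. PSMC2 gave 4188 and 4473, then 1925 and 2170, then 2569 and 2717. Its stages did not overlap, and this probe set fell by 1.08 (SE 0.16, limma adjusted p = 0.000756). The other 2 probe sets of PSMC2 did not follow it, with differences of 0.46 and 0.17, neither called, and the mean of its probe sets gave -0.15. PSMC3 fell by 0.52, a call lost when any 1 of the 4 arrays compared was left out, at -0.63, -0.41, -0.40 and -0.64 without primordial replicate 1, primordial replicate 2, middle replicate 1 and middle replicate 2. PSMC1 and PSMC6 both had differences of -0.19 and were not called.

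Among the other non-ATPase subunits, PSMD1, the other large base scaffold, fell by 0.77 and PSMD14, the deubiquitinating enzyme of the lid, fell by 0.69. PSMD1 was not called without primordial replicate 2 or middle replicate 1, at -0.72 and -0.67. PSMD14 was not called without primordial replicate 1, primordial replicate 2 or middle replicate 1, at -0.68, -0.70 and -0.57. PSMD3, PSMD4, PSMD6, PSMD8 and PSMD13 had differences between -0.49 and -0.28, and none was called. In each of these 5 genes both middle arrays lay below both primordial arrays.

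PSMD10, also known as gankyrin, is an assembly chaperone of the 19S base that leaves the finished particle. It gave signals of 786 and 831 in the primordial pair of arrays, 1347 and 1491 in the middle pair and 1299 and 1286 in the last pair. Both later stages lay above the primordial arrays. PSMD10 rose by 0.80 (SE 0.18, limma adjusted p = 0.00649) and was still 0.67 above the primordial level in the last stage (SE 0.18, limma adjusted p = 0.022). The last-stage call was lost without primordial replicate 1, primordial replicate 2, last replicate 1 or last replicate 2, at 0.63, 0.71, 0.66 and 0.67, and after centring on the median, at 0.53. PSMD5, another base assembly chaperone, gave 486 and 528, then 708 and 715, then 729 and 534, with a difference of 0.48 that was not called (SE 0.22, limma adjusted p = 0.102). Without these chaperones, a division made after the values were seen, all 15 remaining 19S genes had a negative middle minus primordial difference. By mean signal on the linear scale, 14 of the 17 genes of the particle were highest in the primordial stage. This held for 2 of the 14 core subunits and 36.1% of all genes. The difference between the particle and the core was not tested.

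From the primordial to the last stage 4 of the 17 particle genes fell (PSMC2, PSMD2, PSMD11 and PSMD12) and 1 rose (the chaperone PSMD10). Of the 14 core subunits 0 were called by limma. Of all genes 15.8% were called lower and 17.2% higher. PSMD2 and PSMD11 fell by 0.93 (SE 0.20, limma adjusted p = 0.00722) and 0.77 (SE 0.19, limma adjusted p = 0.0127). PSMD2 and PSMC2 were not called without primordial replicate 2, at -0.80 and -0.66, and PSMC2 was not called with the mean of its probe sets, at -0.26. PSMD11 was not called without primordial replicate 1, primordial replicate 2 or last replicate 2, at -0.81, -0.74 and -0.56, nor with the mean of its probe sets, at -0.24. Without primordial replicate 2 fewer of the 17 fell, and a smaller share of all genes was called lower too. The comparisons of the middle and the last stage with the primordial stage share the primordial arrays.

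**Figure D2:**
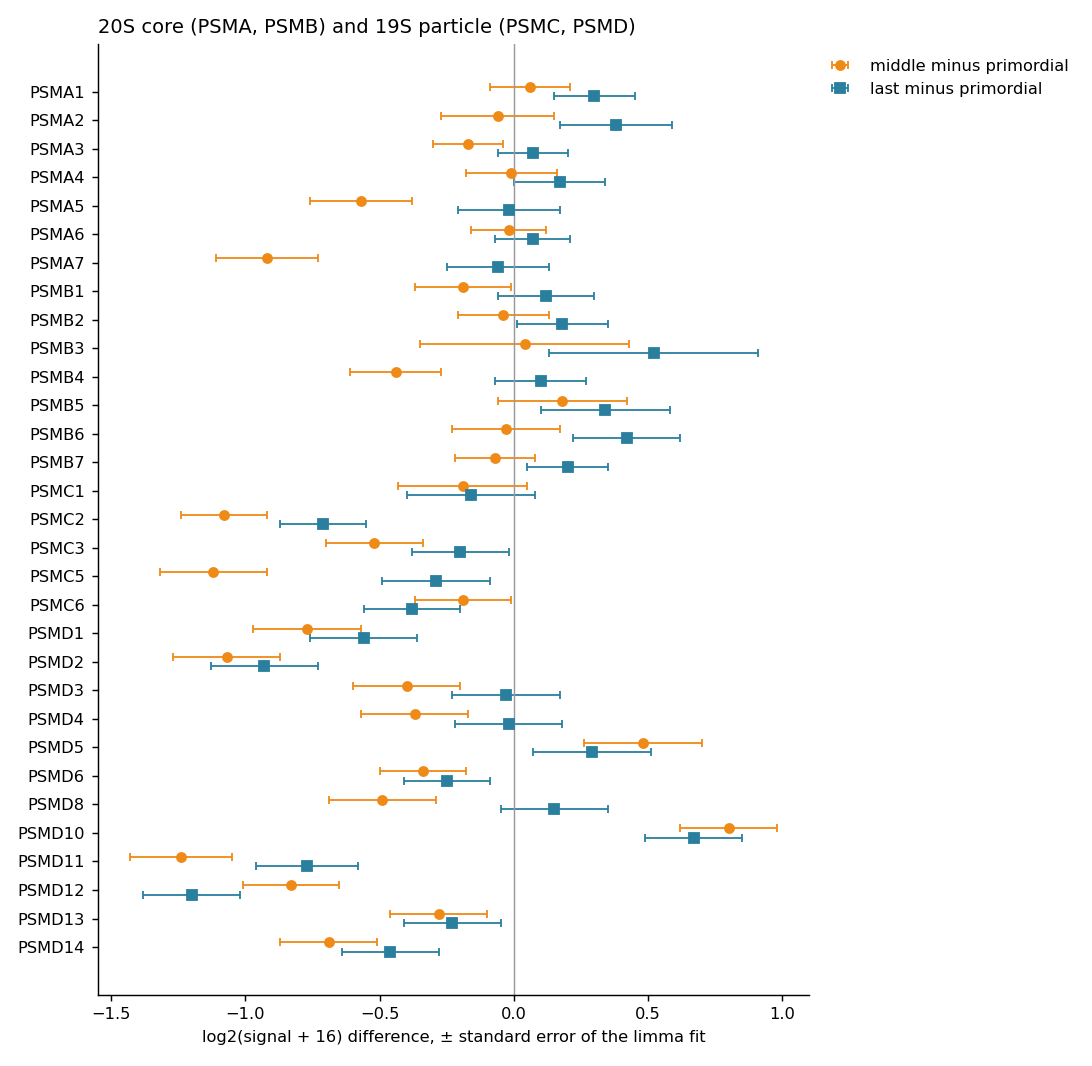
Middle minus primordial and last minus primordial differences in log2(signal + 16) for the 14 core subunits and the 17 genes of the 19S particle. Points are fitted differences and bars their standard errors. Most core subunits lie near 0, PSMD10 lies at 0.80 and 0.67, and PSMD12 at -0.83 and -1.20.

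PSME4 had the largest fall of all members. It encodes PA200, a nuclear activator that caps the core without ATP and is known for histone turnover, especially in male germ cells. PSME4 gave signals of 1852 and 2240 in the primordial pair of arrays, 302 and 325 in the middle pair and 412 and 464 in the last pair. The stages did not overlap, and both later stages were far below the primordial arrays. PSME4 fell by 2.64 between primordial and middle (SE 0.21, limma adjusted p = 2.44e-05), a 6.24-fold difference on the scale with 16 added. It was 2.18 lower in the last stage than in the primordial stage (SE 0.21, limma adjusted p = 0.000157). Of the 5432 genes tested, 165 had a lower middle minus primordial difference. Under the 16 alternative settings tried, both falls of PSME4 kept their call in each fit run.

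PSME3, the nuclear activator known as REG gamma, gave 475 and 413, then 216 and 287, then 386 and 274, and its primordial arrays lay above all others. It fell by 0.79 (SE 0.26, limma adjusted p = 0.0312), but not without primordial replicate 1, primordial replicate 2 or middle replicate 1, at -0.69, -0.89 and -0.60. PSME1 and PSME2, the interferon-inducible activators that accompany the immunoproteasome, were not called. PSME1 gave 2083 and 2091, then 2129 and 3052, then 2771 and 3970. PSME2 gave 1731 and 2153, then 1701 and 2250, then 2013 and 3398. In both genes last replicate 2 was the highest array. PSMF1, an inhibitor of the proteasome, gave 240 and 251, then 269 and 330, then 238 and 333, and was not called. The core assembly chaperones PSMG1 and PSMG3 were not called either, with middle minus primordial differences of 0.12 and 0.11.

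**Figure D3:**
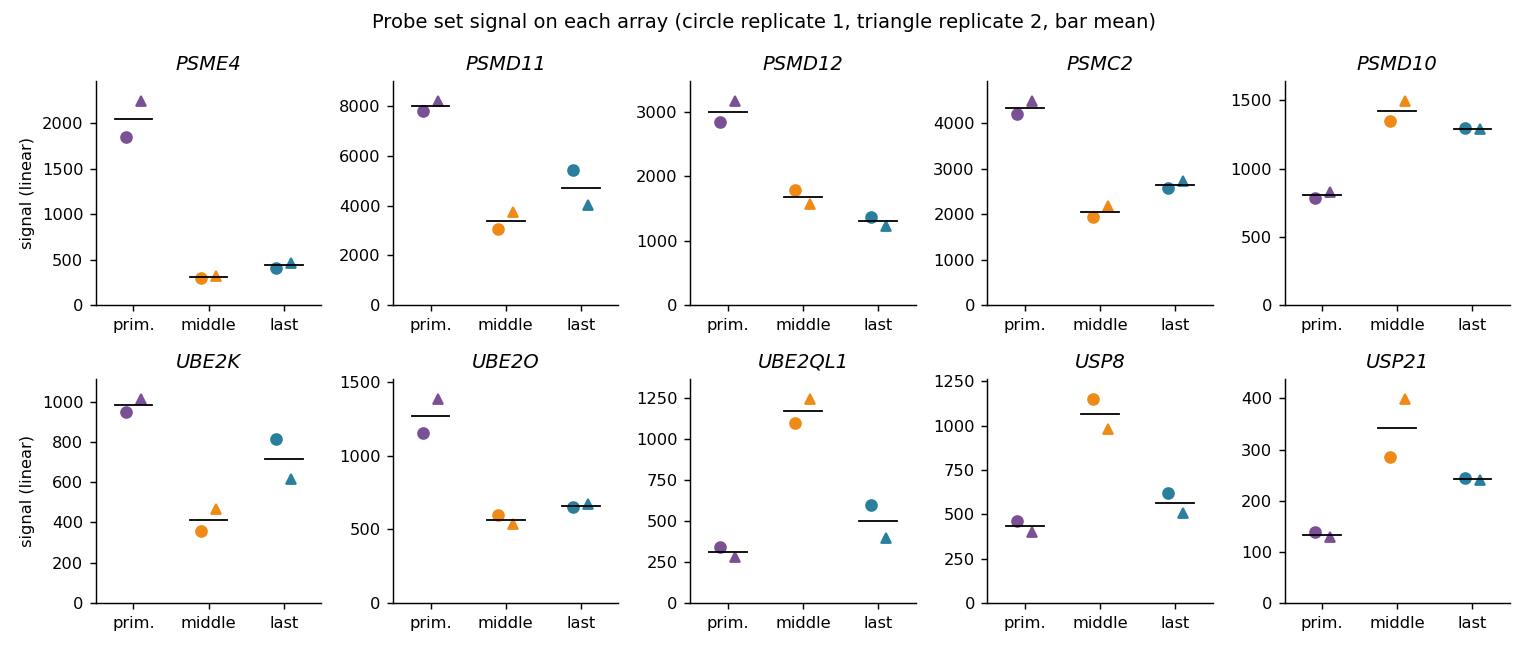
Linear signal on each array for 10 members named in the text, with 1 panel per gene; circles are replicate 1, triangles replicate 2 and bars stage means. PSME4 drops from 1852 and 2240 to 302 and 325, while UBE2QL1, USP8 and USP21 are highest on the middle arrays.

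PSMB8 was called in 2 comparisons and PSMB10 in 0 by limma, and the difference between them was not tested. PSMB8, which replaces PSMB5 in the immunoproteasome, gave 1002 and 725 in the primordial pair of arrays, 184 and 319 in the middle pair and 475 and 1768 in the last pair. The middle arrays were the lowest, and the last arrays lay on either side of the primordial arrays. PSMB8 fell by 1.75 from primordial to middle (SE 0.51, limma adjusted p = 0.0204) and rose by 1.85 from middle to last (SE 0.51, limma adjusted p = 0.0372). The fall was not called without primordial replicate 1 or middle replicate 1, at -1.52 and -1.37. The rise was not called without middle replicate 1, middle replicate 2 or last replicate 2, at 1.48, 2.23 and 0.92, and it was 2.79 without last replicate 1. Beside it, PSMB5, the subunit it replaces, had differences of 0.18 and 0.16 in the same comparisons, neither called. PSMB10, which replaces PSMB7, gave 542 and 560, then 595 and 846, then 372 and 817, and it was not called. Its last arrays were its lowest and its second highest, and for both genes last replicate 2 was far above last replicate 1.

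Within the last stage, PSMB8 and USP18 had the largest gaps between replicates among the members, 1.86 and 1.81 on the log2 scale, with replicate 2 higher, against a median gap of 0.24 for all genes. USP18, an interferon-induced protease that removes the ubiquitin-like protein ISG15, gave 175 and 280, then 404 and 491, then 308 and 1123, and was not called. In the RefSeq gene order of the pig assembly Sscrofa11.1, PSMB8 lies next to TAP1 and TAP2, which encode the peptide transporter of antigen presentation. TAP1, named here for that position, gave 628 and 822, then 285 and 362, then 546 and 2343, so its highest array was also last replicate 2. The summed signal of 15 interferon pathway genes was 6314 on last replicate 1 and 37010 on last replicate 2, beside 7423 and 8762 for the middle stage and 18547 and 24464 for the primordial stage. Leukocyte markers stood at 1674 and 4444 on the last arrays. The part of these cells and of this array in the PSMB8 differences was not tested.

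Other genes of antigen processing gave counts in the same 2 comparisons. Of 11 listed genes 5 fell and 0 rose from primordial to middle, beside 22.5% of all genes called lower and 22.9% higher. From middle to last 6 rose and 0 fell, beside 8.8% of all genes called higher and 7.23% lower. SLA-3, a class I antigen gene, fell by 3.28 (SE 0.60, limma adjusted p = 0.00202), and SLA-2, another, fell by 1.75 (SE 0.36, limma adjusted p = 0.00367). SLA-2 then rose by 1.49 and TAPBP, which helps load peptides, rose by 1.35. Without last replicate 2 the rise of SLA-2 was 0.77 and still called. It was not called without middle replicate 1 or middle replicate 2, at 1.50 and 1.48, and TAPBP was not called without middle replicate 1, middle replicate 2 or last replicate 2, at 1.23, 1.47 and 0.89. Class I genes are near copies of each other, so their probe sets may share signal.

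**Figure D4:**
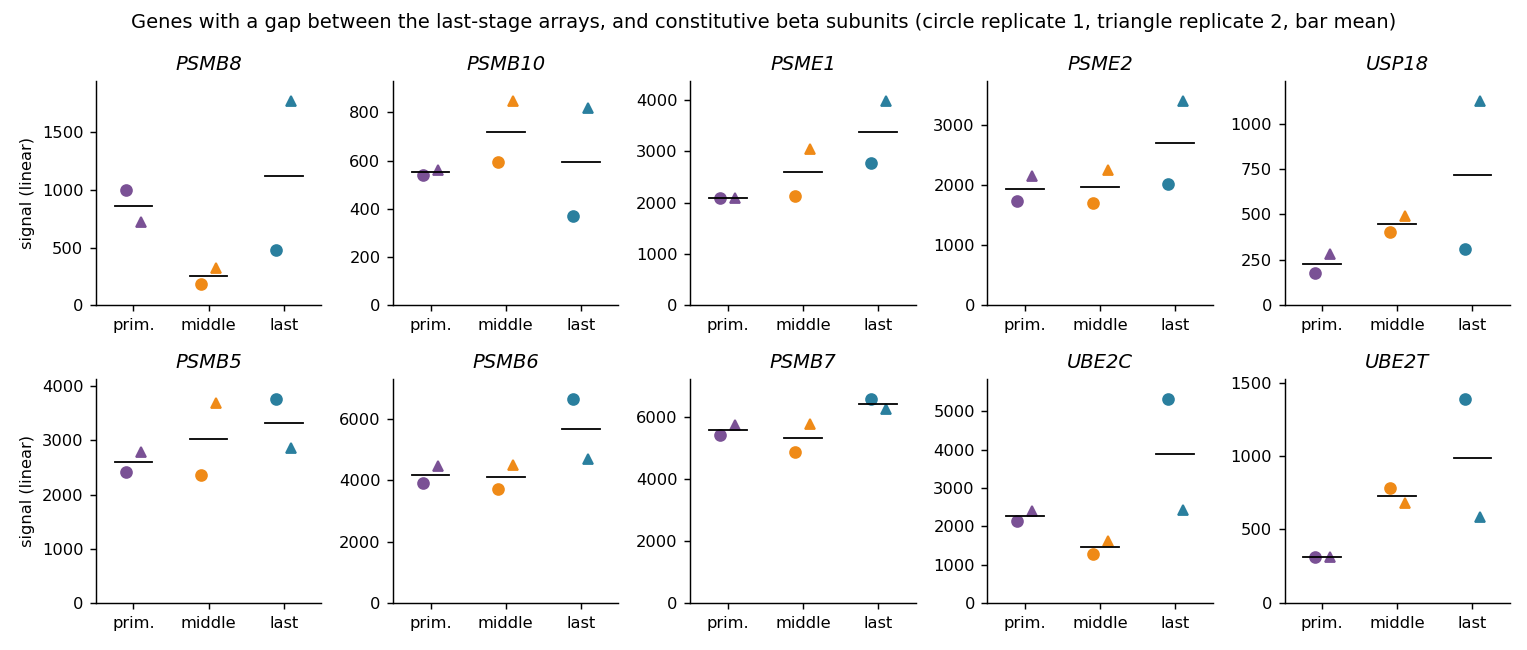
Linear signal on each array for immunoproteasome and interferon-related members, their constitutive counterparts PSMB5, PSMB6 and PSMB7, and UBE2C and UBE2T; circles are replicate 1, triangles replicate 2 and bars stage means. Last replicate 2 is the highest array for PSMB8 at 1768 and USP18 at 1123, and last replicate 1 is the highest for UBE2C at 5316 and UBE2T at 1388.

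The activating enzymes on the array were UBA2, which serves SUMO, and UBA3, which serves NEDD8. Neither was called. UBA2 gave 2683 and 2743, then 3674 and 3318, then 3641 and 2589, and UBA3 gave 1679 and 2355, then 3184 and 2332, then 2135 and 1591.

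The 24 conjugating enzymes moved in both directions. Between primordial and middle 5 fell and 2 rose, beside 22.5% of all genes called lower and 22.9% higher. The median of the 24 was -0.24. Between middle and last 4 rose and 1 fell, beside 8.8% of all genes higher and 7.23% lower. Between primordial and last 2 rose and 1 fell, beside 17.2% of all genes higher and 15.8% lower. From primordial to middle fewer fell without primordial replicate 1, primordial replicate 2 or middle replicate 1. Fewer rose when any 1 of the 4 arrays compared was left out. From middle to last fewer rose without either middle array, either primordial array or last replicate 1. From primordial to last fewer were called without primordial replicate 2. In all these fits smaller shares of all genes were called in the same directions. Without last replicate 2 more of the 24 rose and fell from primordial to last, although smaller shares of all genes were called. Centring on the median gave 11 falls and 1 rise between primordial and middle, where 30.4% of all genes were called lower and 15.6% higher.

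UBE2K, an E2 that builds the ubiquitin chains recognised by the proteasome, gave signals of 952 and 1014, then 357 and 468, then 813 and 617. The stages did not overlap, with the middle arrays lowest. UBE2K fell by 1.23 (SE 0.23, limma adjusted p = 0.00226) and rose by 0.77 into the last stage (SE 0.23, limma adjusted p = 0.0493). That rise was lost when any 1 of 5 arrays was left out, at 0.57 to 0.96, and kept its call without last replicate 2. UBE2O, a large enzyme with both E2 and ligase activity, gave 1154 and 1384, then 594 and 533, then 650 and 673. Both later stages lay below the primordial arrays, and UBE2O fell by 1.14 to the middle (SE 0.20, limma adjusted p = 0.00163) and by 0.92 to the last stage (SE 0.20, limma adjusted p = 0.00821). The last-stage call was lost without primordial replicate 2, at -0.79, and its other, dim probe set ended both calls when averaged in, at -0.44 and -0.17.

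UBE2J2, an E2 of the endoplasmic reticulum, gave 972 and 1179, then 499 and 625, then 791 and 770, with no overlap between stages. It fell by 0.92 (SE 0.21, limma adjusted p = 0.00656), a call lost without primordial replicate 2 or middle replicate 1, at -0.78 and -0.76. UBE2D2, a broadly used E2, fell by 0.51, and was not called without primordial replicate 1, primordial replicate 2 or middle replicate 1, at -0.51, -0.52 and -0.46, or under quantile normalization, at -0.18. A second probe set of UBE2D2 fell by 0.97 and the other had a difference of 0.16. UBE2E3 gave 5033 and 5155, then 3600 and 3830, then 6690 and 5636, and its stages did not overlap. Its fall of 0.45 was lost when any 1 of the 4 arrays compared was left out, at -0.50 to -0.41, and its rise of 0.72 into the last stage was lost without middle replicate 1, middle replicate 2 or last replicate 1, at 0.68, 0.77 and 0.60.

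UBE2QL1, an E2-like gene, had the largest rise of all members from primordial to middle. It gave 339 and 278, then 1095 and 1241, then 599 and 393. The middle arrays were the highest and the stages did not overlap. UBE2QL1 rose by 1.87 (SE 0.25, limma adjusted p = 0.000371) and fell by 1.24 into the last stage (SE 0.25, limma adjusted p = 0.00993). The later fall was lost without middle replicate 1 or middle replicate 2, at -1.33 and -1.15. The oocyte markers were also highest on the middle arrays, and their part in this rise was not tested.

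UBE2C and UBE2T were both highest on last replicate 1. UBE2C, the E2 of the anaphase-promoting complex, gave 2134 and 2400, then 1276 and 1624, then 5316 and 2432. The last arrays lay above all others, narrowly so for replicate 2. UBE2C rose by 1.31 from middle to last (SE 0.32, limma adjusted p = 0.0224), a call lost without middle replicate 1, middle replicate 2 or last replicate 1, at 1.14, 1.48 and 0.75. CDC20, an activator of the same complex that was chosen after its values were seen, gave 1443 and 467 on the last arrays. UBE2T, the E2 of Fanconi anaemia repair, gave 311 and 310, then 779 and 682, then 1388 and 584. Its later stages lay above the primordial arrays, and it rose by 1.19 to the middle (SE 0.35, limma adjusted p = 0.0195) and by 1.49 to the last stage (SE 0.35, limma adjusted p = 0.0107). The rise to the middle was lost when any 1 of the 4 arrays compared was left out, at 1.10 to 1.28, and at 0.95 after centring and 0.97 after quantile normalization. The rise to the last stage was 0.88 without last replicate 1 and still called, and it was lost without primordial replicate 2, at 1.49.

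UBE2B, which acts with RAD18 and RNF20 ligases, gave 2207 and 2184, then 2637 and 2297, then 3535 and 3930. Both last arrays lay above all others. UBE2B rose by 0.76 from primordial to last (SE 0.17, limma adjusted p = 0.00856), a call lost without primordial replicate 2 at 0.75, and by 0.60 from middle to last (SE 0.17, limma adjusted p = 0.0396). The latter was lost when any 1 of the 6 arrays was left out, at 0.50 to 0.69. The other 15 conjugating enzymes were not called in any pairwise comparison at the probe set kept. Additional probe sets of UBE2A and UBE2H, genes in that group, fell by 0.72 (SE 0.19, limma adjusted p = 0.0132) and 1.02 (SE 0.19, limma adjusted p = 0.00228) from primordial to middle. That of UBE2H also fell by 0.9 from primordial to last (SE 0.19, limma adjusted p = 0.00738). An additional probe set of UBE2V1, in the same group, fell by 0.99 from middle to last (SE 0.25, limma adjusted p = 0.0266). It fell by 1.3 from primordial to last (SE 0.25, limma adjusted p = 0.00461).

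The ubiquitin-specific proteases were the subfamily with the most members highest in the middle stage. Of the 14 tested, 10 had their highest mean signal on the linear scale there, against 35.9% of all genes. From primordial to middle 4 rose (28.6%) and 0 fell, beside 22.9% of all genes called higher and 22.5% lower. The median of the 14 was 0.32, which was 0.08 after centring on the median and 0.21 after quantile normalization. Centring gave 3 that rose and 1 that fell, beside 15.6% of all genes called higher and 30.4% lower. Fewer rose without primordial replicate 2 or middle replicate 2, where smaller shares of all genes were called higher too. From middle to last 13 of the 14 had a negative difference, with a median of -0.42. USP8 alone was called, beside 7.23% of all genes called lower. Without middle replicate 2, 9 of the 14 were negative, and the median was -0.21.

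USP8, which acts on endosomal cargo and receptors, gave 465 and 400, then 1150 and 982, then 619 and 507. The middle arrays were the highest and no stages overlapped. USP8 rose by 1.27 (SE 0.22, limma adjusted p = 0.00135) and fell by 0.90 into the last stage (SE 0.22, limma adjusted p = 0.0206). The fall was lost without middle replicate 1, middle replicate 2 or last replicate 2, at -0.79, -1.02 and -0.76. USP21, a protease known to act on histone H2A, gave 138 and 129, then 286 and 399, then 244 and 241, again without overlap. It rose by 1.24 to the middle stage (SE 0.26, limma adjusted p = 0.00369) and by 0.79 from primordial to last (SE 0.26, limma adjusted p = 0.0406). The last-stage call was lost without primordial replicate 1, primordial replicate 2, last replicate 1 or last replicate 2, at 0.83, 0.75, 0.78 and 0.80, and it was also lost at 0.66 after centring and 0.56 after quantile normalization.

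USP28, a protease that stabilises MYC, gave 612 and 483, then 938 and 1057, then 754 and 719, and rose by 0.85 (SE 0.21, limma adjusted p = 0.0087). The call was lost without primordial replicate 2 or middle replicate 2, at 0.69 and 0.77. USP4 gave 274 and 257, then 393 and 522, then 339 and 339, and rose by 0.74 (SE 0.23, limma adjusted p = 0.0258). It was not called without primordial replicate 1, primordial replicate 2 or middle replicate 2, at 0.78, 0.69 and 0.54, or after centring, at 0.50. For both genes the stages did not overlap. USP7, which acts on MDM2 and p53, moved the other way, with 3511 and 2954, then 2399 and 2541, then 2105 and 2075. It fell by 0.62 from primordial to last (SE 0.17, limma adjusted p = 0.0219), a call lost when any 1 of the 4 arrays compared was left out, at -0.74 to -0.50.

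The remaining proteases were not called at the probe set kept. USP2 was dim, with 137 and 122, then 169 and 221, then 34 and 119, and its last minus middle difference of -1.35 (SE 0.45, limma adjusted p = 0.069) was not called. A second probe set of USP16 rose by 2.18 from primordial to middle (SE 0.24, limma adjusted p = 0.000126) where the kept one had a difference of 0.20, and a second probe set of USP10 fell by 0.78 (SE 0.24, limma adjusted p = 0.0252) where the kept one had -0.21. USP30 and USP36 were below the filter. USP36 gave 74 and 121, then 14 and 28, then 19 and 22, and USP30 stayed between 25 and 71. With no filter USP36 was called lower in the middle and in the last stage than in the primordial stage, at -1.62 and -1.61, from later signals close to the 16 that is added before the log. Across all members with more than 1 tested probe set, 15 genes, 0 had probe sets called in opposite directions by limma, and 6 had opposite signs between primordial and middle. In that comparison all tested probe sets had the same call in 5 of the 15. The second tested probe sets of PSMD1 and PSMD11 had differences of -0.49 and -0.65 there, neither called (limma adjusted p = 0.161 and 0.0662).

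Genes that surround these enzymes in the pathway were read from lists. The ubiquitin genes UBB and RPS27A were not called in any comparison, with middle minus primordial differences of -0.25 (SE 0.12) and 0.04 (SE 0.12). Of 6 proteasome-associated factors 3 fell and 1 rose from primordial to middle, beside 22.5% of all genes called lower and 22.9% higher. ZFAND2A, an arsenite-inducible proteasome partner, gave 5669 and 2262, then 598 and 874, then 1068 and 790, and fell by 2.28 (SE 0.39, limma adjusted p = 0.00132). TXNL1, a thioredoxin bound to the 19S particle, gave 4497 and 5000, then 1715 and 1786, then 3343 and 2874, and fell by 1.43 (SE 0.17, limma adjusted p = 0.000189). Of 5 segregase and shuttle factors 2 fell and 1 rose. SQSTM1, the ubiquitin-binding autophagy receptor p62, gave 9733 and 9711, then 3168 and 2793, then 3971 and 5215, and fell by 1.70 (SE 0.17, limma adjusted p = 8.87e-05). For all 3 genes the primordial arrays lay above all others.

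Among 14 cullin and RING ligase genes 5 rose and 1 fell between primordial and middle. Beside this and the counts that follow, 22.9% of all genes were called higher and 22.5% lower. ANAPC5, a scaffold of the anaphase-promoting complex, rose by 1.52 (SE 0.23, limma adjusted p = 0.000707), and FBXO32, the ligase subunit known as atrogin-1, fell by 2.26 (SE 0.46, limma adjusted p = 0.00353). Among 14 other ligases 2 rose and 4 fell. WWP1, a HECT ligase, gave 58 and 46, then 284 and 367, then 314 and 241, and rose by 2.32 (SE 0.28, limma adjusted p = 0.000229). Among 11 genes listed as deubiquitinases of other families 3 rose (BRCC3, COPS5 and EIF3H) and 2 fell. ZRANB1 fell by 2.20 (SE 0.23, limma adjusted p = 9.95e-05) and CYLD, a negative regulator of NF-kappaB signalling, fell by 2.0 (SE 0.30, limma adjusted p = 0.000691). Among 17 genes of ubiquitin-like modifiers 4 rose and 1 fell. Among 7 COP9 signalosome subunits 1 rose and 1 fell, and the 1 that rose was COPS5, already counted among the deubiquitinases.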

How the data were processed

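RNA was hybridised to 6 single-channel porcine arrays, 2 per titled stage. Per the labels' protocols it was extracted with Trizol. The deposited intensity values are linear and came from GCOS, the array software named in the submitters' processing notes, and the values show that the authors had scaled each array to 1 trimmed mean, 500.1 without the outer 2% at each end. The GCOS version is not given in the sources used here, nor are its settings. The members, lists and rules were chosen with earlier results of these data known.

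Of 23999 probe sets other than controls, the 40% with the lowest mean signal were left out, which left 14399 with a mean of 91.3 or more. Genes were named from probe sets with 1 symbol, and for 79 of the 82 members RefSeq held the same gene identifier, with 0 symbols differing. Neither coordinates nor sequences of the probe sets were used here. limma 3.58.1 in R 4.3.3 (lmFit, eBayes with an intensity trend) was fitted to log2(signal + 16) of all 6 arrays without a block, with 3 residual and 6.33 prior degrees of freedom. Tests were two-sided, adjusted by Benjamini-Hochberg over all 14399. The fit was tested on simulated data. Summaries were made in Python 3.11.15 (pandas 2.3.3, numpy 2.4.6) and figures with matplotlib 3.10.9. With 2 arrays per stage, an exact permutation test of 1 value cannot go below p = 0.333, so none was run, and the number of arrays limits the precision. No set was tested. Immunoproteasome and activator genes, PSMB5 to PSMB7, and up to 3 called genes per subfamily or list, direction and comparison were named by rule, and other members by value. Alternatives were the pseudocount (1 and 64), the filter, the scaling, the trend, the replicate block, the mean of probe sets, a fit of the 4 arrays compared, and each array left out.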

Additional observations from a re-analysis of the deposited data

How the results depend on the processing

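Of the calls reported between primordial and middle, 4 of 7 higher and 7 of 18 lower members kept their call under every alternative that gave them a value (PSMD10, UBE2QL1, USP8, USP21, PSMA7, PSMC5, PSMD2, PSMD11, PSMD12, PSME4 and UBE2K). Between primordial and last PSMD12 and PSME4 did, and between middle and last none of the 9 did. Replicate numbers did not pair the samples: deviations of same-numbered arrays correlated at 0.06, 0.03 and -0.05. With the replicate block, 7 members rose and 16 fell (primordial to middle), 5 and 2 (middle to last), and 5 and 7 (primordial to last). From middle to last, 4 members rose with no filter and 0 with eBayes without trend, by limma. Centring on the median gave 32 lower members between primordial and middle, and 2 higher and 11 lower between primordial and last. Leaving out 1 array, the counts ranged from 4 to 8 higher and 9 to 19 lower between primordial and middle, from 0 to 8 and 0 to 2 between middle and last, and from 0 to 5 and 2 to 7 between primordial and last. The F-test called 14 to 29 members. All probe sets called were 4356 to 7189, 727 to 2172 and 2730 to 4297 in those comparisons. The mean of probe sets was not used for probe set counts, and the fit of 4 arrays gave no F-test.

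Of the values that changed sign, MARCH6, a membrane ligase, had passed the test (-0.69 between primordial and middle, 0.09 with the mean of probe sets), and the others had not. Between primordial and middle, centring gave PSMB5 -0.06 and PSME2 -0.22; quantile normalization gave PSMB6 0.22, PSMB7 0.23 and PSMF1 -0.05; and the mean of probe sets gave PSMF1 -0.15. Leaving out 1 array gave PSMB5 -0.14 to 0.50, PSMB6 -0.17 to 0.11, PSMB7 -0.19 to 0.05 and PSME2 -0.18 to 0.22. Between middle and last, PSMF1 gave 0.03 with centring, 0.06 with quantile normalization and 0.77 with the mean of probe sets. Leaving out 1 array gave PSMB10 -0.90 to 0.20, PSMB5 -0.17 to 0.48 and PSMF1 -0.31 to 0.15. Between primordial and last, PSMB10 gave -0.13 with centring and -0.08 with quantile normalization, and PSMB8 gave -0.03 with centring. Leaving out 1 array gave PSMB10 -0.55 to 0.55, PSMB8 -0.82 to 1.04 and PSMF1 -0.04 to 0.42. The causes were not tested.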
